A study of Mus musculus with 7 samples.

Results

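The adhesion genes described here are 9 of the 24421 genes in a table of RNA-seq counts from eosinophils of damaged mouse muscle. They were chosen by symbol: the integrin alpha subunits Itgal, Itgam, Itgax and Itga4, the beta subunits Itgb2, Itgb1 and Itgb7, the selectin ligand Selplg (PSGL-1) and the integrin counter-receptor Icam1. All 9 had reads in every library and passed the filter on low counts.

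The study compared 3 libraries from mice of WT genotype with 4 from mice labelled IL5-Tg, a line with an excess of the eosinophil cytokine IL-5. All 7 came from muscle taken 3 days after ntx, an abbreviation the labels leave unexplained. Cells of both genotypes were sorted as positive for CD45 and SiglecF and negative for NK1, Ly6G and CD3e. No source used here gives the strain, age, sex, transgene promoter or any pooling of animals. Nor do the labels say that each library is a different animal, and a p-value here speaks only of the spread among 7 libraries, which may be technical. The sort also used CD11b, the protein that Itgam encodes, in a gate written "CD11bing". A level of Itgam is therefore a level in cells chosen by its product, and Itgam gives no finding between the groups.

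Integrins are adhesion receptors made of 1 alpha and 1 beta subunit, and a cell can show only the pairs whose subunits it makes. On leukocytes the beta 2 subunit pairs with alpha L, M or X to bind ICAM-1, complement fragments and fibrinogen, while alpha 4 pairs with beta 1 to bind VCAM-1 or with beta 7 to bind MAdCAM-1. Selectins and PSGL-1 slow leukocytes on the vessel wall, and integrins then hold them there. Eosinophils are known for carrying alpha 4 integrins besides the beta 2 family.

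Libraries held 11581365 to 20231509 counts, of which 9665093 to 17447106 were assigned to genes. Levels are given as CPM, counts scaled to a common library size with TMM factors. The most common low count above 0 of a library ran from 5 to 12 in WT and from 1 to 4 in IL5-Tg, and counts divided by it were among the alternatives. Of the eosinophil genes, Siglecf, whose product was used to sort the cells and so gives no separate check, was at 251 to 857 CPM. Ccr3 was at 575 to 1393 CPM in every library, while the peroxidase gene Epx was low at 2.72 to 32.8 CPM. Of the 9 eosinophil genes 1 passed the test, which 0.410% of all genes tested passed. Prg2, the gene of the granule major basic protein, was at 120 ± 21.2 in WT and 815 ± 319.6 CPM in IL5-Tg libraries (SD, n = 3 and 4; log2 fold change 2.76, edgeR adjusted p = 0.0160). Il5ra, a subunit of the IL-5 receptor, had a log2 fold change of -0.97 (unadjusted p = 0.0115, edgeR adjusted p = 0.363). Of the other cells' markers, the 10 macrophage and monocyte genes summed to 1373 to 4156 CPM in WT and 2719 to 4468 CPM in IL5-Tg libraries, and 0 of the 10 passed the test. The 7 fibroblast genes summed to 2818 and 3146 CPM in WT replicates 1 and 2, to 15.3 CPM in WT replicate 3 and to 1887 to 4663 CPM in IL5-Tg libraries. The 8 neutrophil genes summed to 10245 to 13813 CPM in WT and 3330 to 5929 CPM in IL5-Tg libraries, most of it Retnlg, and 2 of them passed the test in opposite directions, Retnlg lower and Ngp higher. The 7 mast cell and basophil genes summed to 188 to 483 CPM in WT and 120 to 143 CPM in IL5-Tg libraries, and Hdc alone passed, lower. The 6 T cell genes summed to 0 to 9.82 CPM in WT and 2.33 to 5.53 CPM in IL5-Tg libraries, and the 6 muscle fibre genes to 104 to 336 and 373 to 1165 CPM, with 0 of either list passing. WT replicate 3 also stood apart with 10877 genes detected, against 12759 to 14391 in the other libraries. Fewer cells of a type and less RNA per cell cannot be told apart in such bulk samples.

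None of the 9 genes passed the genotype test at an adjusted p under 0.05 (edgeR quasi-likelihood, adjusted over all genes). Among all 12428 genes tested 51 passed, or 0.410%: 42 (0.338%) were higher and 9 (0.0724%) lower in IL5-Tg. These counts were 14 to 79 and 1 to 31 when any 1 library was left out. Icam1 and Itgax, 2 of the 9, had an unadjusted p under 0.05, as did 9.04% of all genes tested. DESeq2 and limma-voom also called 0 of the 9, against 1.58% and 0.257% of all genes. The log2 fold changes, as IL5-Tg over WT, were positive for 5 genes and negative for 4, with a median of 0.04 against 0.03 over all genes tested. Of all genes tested 52.1% were positive.

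**Figure D1:**
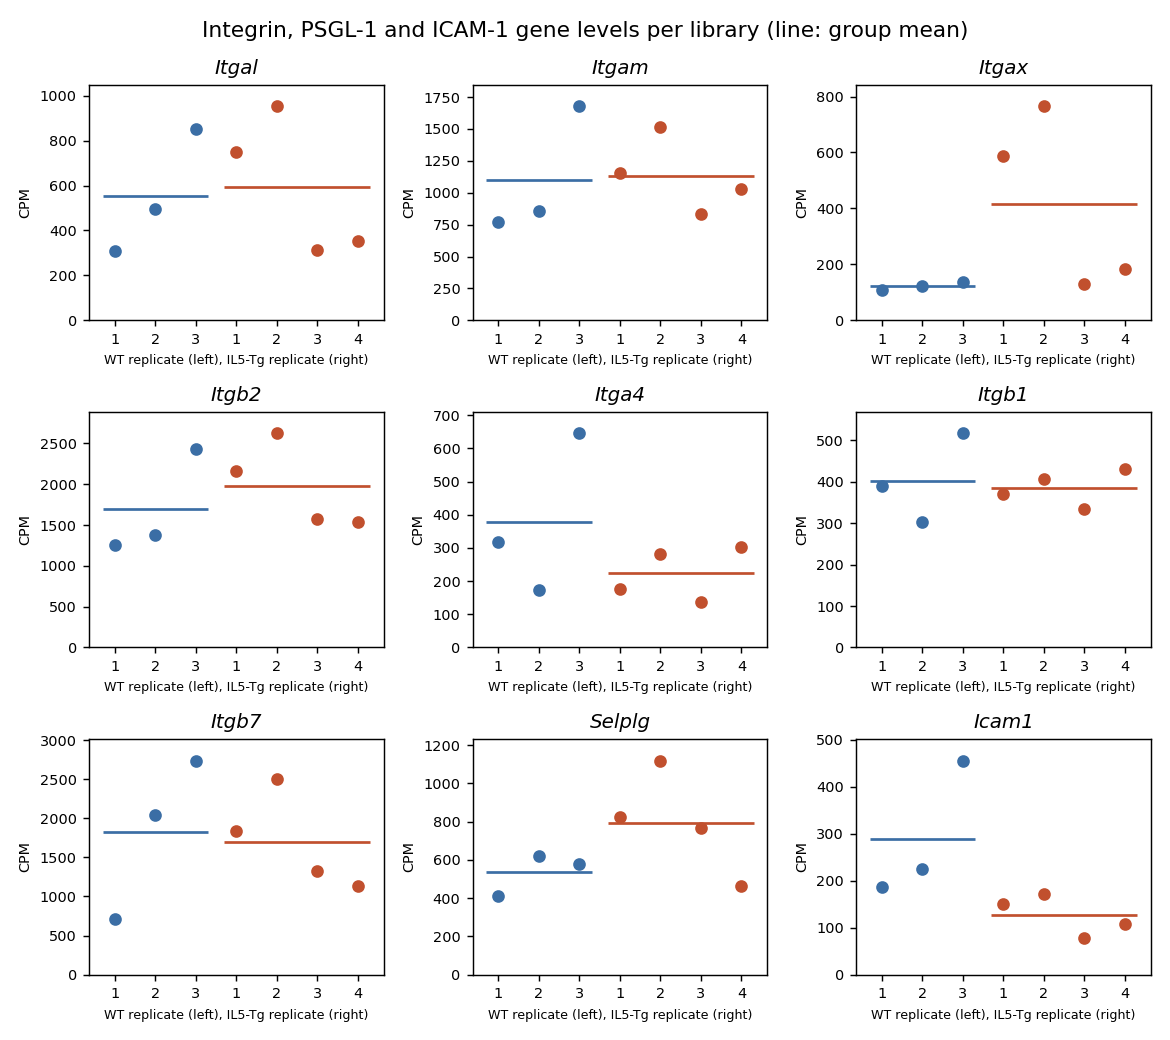
Level of each of the 9 genes in CPM (vertical axes, from 0) in the 3 WT libraries (blue) and 4 IL5-Tg libraries (red), with the group mean as a line. Itgax is high in IL5-Tg replicates 1 and 2 alone, and Icam1 is the 1 gene whose groups do not overlap.

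Adhesion receptor levels were ranked per length, as CPM per kilobase of exon in GENCODE vM21, averaged over the 7 libraries. The beta subunits Itgb7 and Itgb2 stood highest, at 634 ± 267 and 607 ± 178 CPM per kilobase (SD, n = 7). These 2 neighbours were not separated, since Itgb7 exceeded Itgb2 in 3 of 7 libraries. Itgam followed at 223 ± 70.3 and was below Itgb2 in 7 of 7 libraries. Selplg was at 160 ± 56.9, Itgb1 at 96.3 ± 17.1 and Itgal at 87.7 ± 41.4 CPM per kilobase (SD, n = 7). Itgb1 exceeded Itgal in 3 of 7 libraries, so that pair was not separated either. The lowest were Itgax at 60.6 ± 56.0, Icam1 at 45.1 ± 28.5 and Itga4 at 20.8 ± 12.3 CPM per kilobase (SD, n = 7). Itgax exceeded Icam1 in 4 of 7 libraries. The place of Itga4 depended on the length used: its exons cover 13978 bases but its coding sequence 3096, and per kilobase of coding sequence it was at 93.9, above Itgax at 83.0. Selplg rose past Itgam on that scale, at 494 against 311, and Itgb2 past Itgb7, at 795 against 725.

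**Figure D2:**
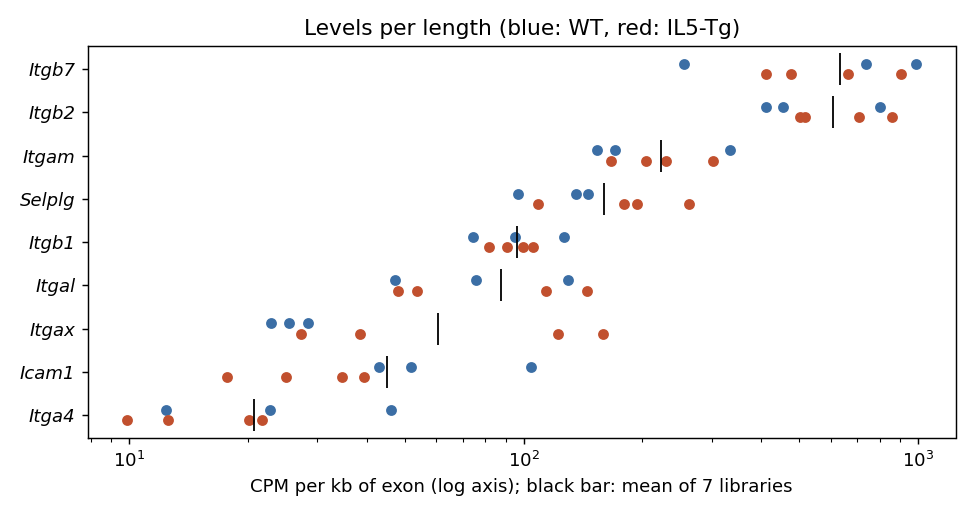
Level per length of the 9 genes, in CPM per kilobase of exon on a log axis, with 1 point per library (blue WT, red IL5-Tg) and the mean of 7 libraries as a black bar. Itgb7 and Itgb2 lie highest and overlap, and Itga4 lies lowest.

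The beta 2 family was described first by its common subunit. Itgb2, whose product CD18 is needed for every integrin of this family to reach the surface, measured 1258, 1384 and 2436 CPM across WT replicates 1, 2 and 3. In IL5-Tg replicates 1, 2, 3 and 4 it was at 2166, 2622, 1579 and 1533 CPM. The 2 ranges overlapped, with WT replicate 3 above 3 of the 4 IL5-Tg libraries. On the log2 scale the fold change of Itgb2 was 0.22 ± 0.32 (SE; edgeR adjusted p = 0.918), whose 95% interval reached from -0.49 to 0.94.

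Itgam, which encodes alpha M (CD11b), occupies bases 128062640 to 128118491 of chromosome 7 (forward strand, mm10, annotation GENCODE vM21). It was at 771, 857 and 1677 CPM in WT and 1155, 1514, 835 and 1026 CPM in IL5-Tg libraries. WT replicate 3 was the highest, and the other 2 WT libraries were near the lowest IL5-Tg library. The group means of 1102 ± 500.0 (SD, n = 3) and 1133 ± 286 CPM (SD, n = 4) gave a log2 fold change of 0.04 ± 0.34 (SE), and its direction turned in several alternative settings.

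Itgal encodes alpha L, the partner of beta 2 in LFA-1, the leukocyte receptor for ICAM-1. Its level was 310, 497 and 852 CPM in WT and 750, 953, 315 and 353 CPM in IL5-Tg libraries. Each group thus held low and high libraries, and the log2 fold change was 0.10 ± 0.46 (SE; edgeR adjusted p = 0.971), with a 95% interval from -0.92 to 1.12. Without the IL5-Tg replicates 1 and 2 it was -0.73.

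Itgax, which encodes alpha X (CD11c), a receptor for complement fragments best known from dendritic cells and macrophages, had the highest ratio of its largest to its smallest value among the 9 genes. It starts 11056 bases past the end of Itgam, and occupies bases 128129547 to 128150657 of chromosome 7 on the same strand. Its level was 110, 122 and 137 CPM in the 3 WT libraries. In IL5-Tg replicates 1 and 2 it was 588 and 765 CPM, and in IL5-Tg replicates 3 and 4 it was 131 and 185 CPM. The highest WT library lay above the lowest IL5-Tg library, so the groups overlapped. Itgax had a log2 fold change of 1.76 ± 0.60 (SE; 95% interval 0.41 to 3.12; unadjusted p = 0.0165, edgeR adjusted p = 0.405), and the adjusted p by DESeq2 was 0.0527.

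The split within the IL5-Tg group followed the sample titles. IL5-Tg replicates 1 and 2 have titles that begin with 81, and no WT library does; what these numbers stand for is not given in the labels. Without these 2 libraries the log2 fold change of Itgax was 0.37 and did not pass, in a setting chosen after their values were seen. Between the 2 libraries with titles that begin with 82, Itgax was 1.19 times as high in IL5-Tg as in WT, and between the 2 that begin with 86 it was 1.52 times as high, each with 1 library a side and no replicate check. Title start and genotype cannot be told apart for the high libraries. Selplg was the other of the 9 genes for which both libraries lay above all 5 others, a pattern that 5.46% of all genes tested had.

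Levels of other cells' markers beside Itgax were as follows. The 10 macrophage and monocyte genes summed to 3565 and 2719 CPM in IL5-Tg replicates 1 and 2 and to 4468 and 3669 CPM in replicates 3 and 4. In 2 of the 10, Csf1r and Ly6c2, both of replicates 1 and 2 lay above both of replicates 3 and 4. The 8 dendritic cell genes summed to 2672 and 1762 CPM in replicates 1 and 2 and to 3998 and 2048 CPM in replicates 3 and 4. Cd74, H2-Aa and H2-Ab1 made up most of that sum, at 272 to 2182 CPM each, while Cd209a reached 18.4 CPM, Flt3 10.2, Zbtb46 4.06, Xcr1 3.56 and Clec9a 2.02 CPM at most. Zbtb46 was the 1 gene of the 8 with both of replicates 1 and 2 above both of replicates 3 and 4. The same pattern was seen in 4 of the 9 eosinophil genes, Siglecf, Ccr3, Prg2 and Adgre1. It was also seen in 3 of the 8 neutrophil genes and, at low levels, in 3 of the 6 T cell genes. The share of all genes with this pattern was not counted. The part of any of these cell types in the level of Itgax was not tested.

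Relative to Itgam in the same library, Itgax did not overlap between the groups, on a ratio that no scaling between libraries can move. Itgam encodes the CD11b by which the cells were sorted, so this ratio and the shares below give no finding between the groups. Itgax alone overlapped, and how many other ratios of 2 genes do not overlap was not counted. Per kilobase of exon it was 0.149, 0.149 and 0.0852 of Itgam in the WT libraries. It was 0.533 and 0.528 in IL5-Tg replicates 1 and 2 and 0.164 and 0.189 in replicates 3 and 4. All 4 IL5-Tg libraries were above all 3 WT libraries, and the mean difference of 0.226 was 0.0488 without the libraries whose titles begin with 81. Of the summed alpha partners of beta 2, Itgax made up 10.2%, 9.36% and 5.78% in WT and 26.2%, 26.3%, 11.3% and 13.0% in IL5-Tg libraries. Itgam made up 62.8% to 68.7% in WT, 49.3% and 49.8% in IL5-Tg replicates 1 and 2 and 68.8% in each of replicates 3 and 4. The share of Itgal was 21.1% to 27.8% in WT and 18.1% to 24.5% in IL5-Tg libraries. The remaining partner, Itgad, had 0 reads in WT. A limit of 3 reads allows up to 0.317 CPM in the shallowest WT library. The most common low count there was 8, so the true limit may be higher. IL5-Tg libraries held 14 Itgad reads in sum, at 0.750, 0, 0.146 and 0.208 CPM in replicates 1, 2, 3 and 4. The sum of alpha partners over Itgb2 was 0.586 ± 0.0387 in WT and 0.605 ± 0.103 in IL5-Tg libraries (SD, n = 3 and 4), with overlapping values. These ratios of RNA levels are descriptions and were given no test.

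**Figure D3:**
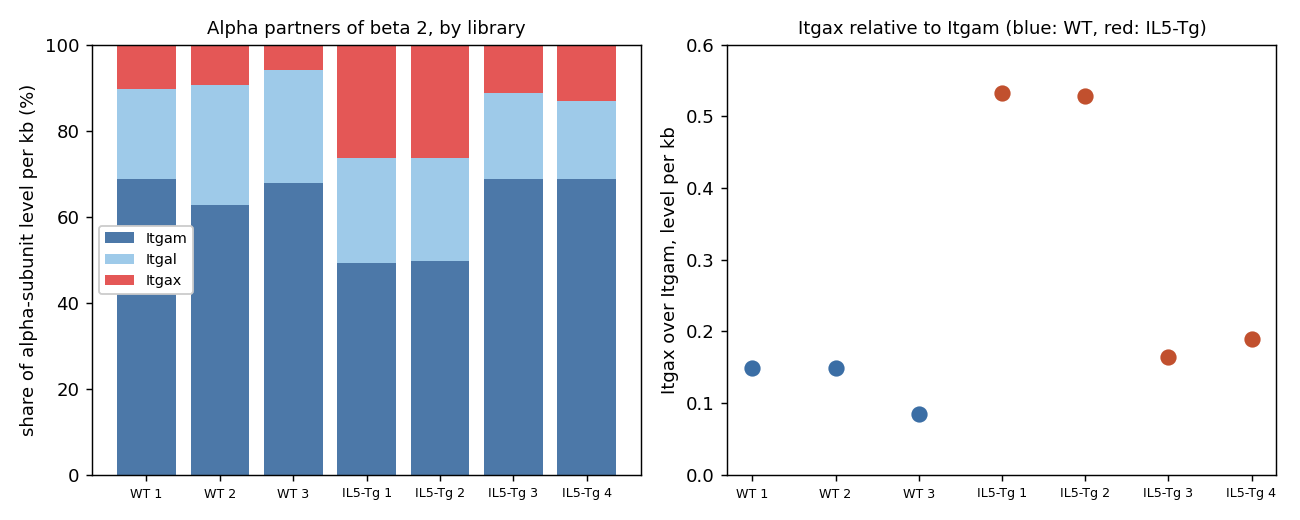
Left, share (%) of Itgam, Itgal and Itgax in their summed level per kilobase of exon in each library; Itgad, under 0.04%, is not visible. Right, level of Itgax over that of Itgam per kilobase, with 1 point per library, at 0.533 and 0.528 in IL5-Tg replicates 1 and 2 and 0.0852 to 0.189 in the other 5.

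Because Itgam and Itgax are neighbours, the bases before their starts are shown, with those of Icam1, the gene with the smallest p of the 9. The windows span bases 250 to 11 before the start in RefSeq (GRCm38.p6, plus strand), at chr7:128062390-128062629, chr7:128129300-128129539 and chr9:21015690-21015929. Windows were found for 6 of the 9 genes; Itgal, Itgb2 and Selplg were not matched. Capitals mark letters that match 1 of 5 motifs, searched on both strands and chosen with the results known. The motifs were GAGGAAG (bound by PU.1, a myeloid factor), TGANTCA (AP-1), TTCNNNGAA (STAT proteins), TATAAA and GGGNNTTCC. The last was searched for NF-kB, though it does not match every form of its site.
Itgam: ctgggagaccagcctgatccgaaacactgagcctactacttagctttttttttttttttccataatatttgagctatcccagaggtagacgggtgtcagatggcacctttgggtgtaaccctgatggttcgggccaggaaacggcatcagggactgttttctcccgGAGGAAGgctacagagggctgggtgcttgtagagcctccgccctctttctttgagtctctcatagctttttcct
Itgax: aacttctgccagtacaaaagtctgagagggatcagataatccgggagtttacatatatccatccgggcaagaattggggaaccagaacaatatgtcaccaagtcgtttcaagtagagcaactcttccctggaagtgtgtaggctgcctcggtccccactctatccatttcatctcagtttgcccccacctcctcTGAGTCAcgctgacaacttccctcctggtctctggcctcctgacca
Icam1: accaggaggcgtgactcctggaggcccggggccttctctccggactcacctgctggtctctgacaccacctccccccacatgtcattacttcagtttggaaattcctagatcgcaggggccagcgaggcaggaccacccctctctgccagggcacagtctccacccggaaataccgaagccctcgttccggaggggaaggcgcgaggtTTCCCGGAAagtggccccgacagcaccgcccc
The Itgam window holds the PU.1 letters 84 bases before the start, as do 3288 of all 32851 windows of this length. The Itgax window holds the AP-1 letters 56 bases before the start, as do 6.58% of all windows, and the Icam1 window the STAT letters 42 bases before it, as do 6.77%. The letters GGGNNTTCC were in the Itgb1 window and in 4.72% of all windows, and TATAAA in 0 of the 6 windows and in 12.1% of all. NF-kB sites spelled in other ways were not searched for, in the Icam1 window or any other. A match shows the letters and not that a factor binds there.

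Alpha 4 and its partners were at very different levels. Itga4, which gives eosinophils their receptor for VCAM-1, was at 317, 173 and 645 CPM in WT and 176, 281, 138 and 303 CPM in IL5-Tg libraries. WT replicate 3 held by far the most, and the other 6 libraries overlapped. Its log2 fold change was -0.75 ± 0.43 (SE; 95% interval -1.71 to 0.21; edgeR adjusted p = 0.706), and it was -0.09 without WT replicate 3.

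Itgb1, the most widely used beta subunit, was the steadiest of the 9 genes, with a coefficient of variation of 17.7% over the 7 libraries. It was at 389, 303 and 517 CPM in WT and 370, 407, 333 and 432 CPM in IL5-Tg libraries, and the groups overlapped throughout. For Itgb1 the log2 fold change was -0.06 ± 0.25 (SE; edgeR adjusted p = 0.967), and its 95% interval from -0.62 to 0.49 was the narrowest of the 9.

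Itgb7, known best from lymphocytes that home to the gut, ranked 57 among all genes by mean CPM. Its level was 707, 2043 and 2736 CPM in WT and 1839, 2503, 1321 and 1139 CPM in IL5-Tg libraries. WT replicate 1 was the lowest library and WT replicate 3 the highest, so that the WT group alone spanned the whole range. Itgb7 had a log2 fold change of -0.10 ± 0.44 (SE; 95% interval -1.08 to 0.87). Per kilobase of exon, Itgb7 exceeded Itgb1 in all 7 libraries, by 2.68, 9.92 and 7.80 times in WT and by 7.33, 9.06, 5.84 and 3.89 times in IL5-Tg replicates 1 to 4.

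Selplg encodes PSGL-1, the main ligand of P-selectin on leukocytes. It was at 413, 621 and 579 CPM in WT and 827, 1119, 769 and 465 CPM in IL5-Tg libraries. Of the 4 IL5-Tg libraries, 3 lay above every WT library and replicate 4 lay among them. Selplg had a log2 fold change of 0.56 ± 0.32 (SE; 95% interval -0.14 to 1.27; edgeR adjusted p = 0.694), and without the libraries whose titles begin with 81 it was 0.20.

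Icam1, the counter-receptor of LFA-1 and Mac-1 that inflammatory cytokines induce on many cells, was the 1 gene of the 9 whose groups did not overlap, as was so for 9.36% of all genes tested. The gene occupies bases 21015985 to 21028817 of chromosome 9 (forward strand, mm10). Icam1 was measured at 187, 226 and 456 CPM in WT and 151, 172, 77.1 and 109 CPM in IL5-Tg libraries. Every IL5-Tg library was below every WT library, but the gap between 172 and 187 CPM was small beside the range within WT. For Icam1 the log2 fold change was -1.19 ± 0.37 (SE; 95% interval -2.01 to -0.37; unadjusted p = 0.00887, edgeR adjusted p = 0.327). It was -0.68 without WT replicate 3, where the summed fibroblast and macrophage markers were lowest, and -1.64 without the libraries whose titles begin with 81. Between libraries with the same title start the IL5-Tg level was 0.412 of the WT level for 82 and 0.481 for 86, each with 1 library a side. The summed neutrophil genes were also at a lower level in IL5-Tg, and within WT they were at 10245, 13081 and 13813 CPM in replicates 1, 2 and 3. Retnlg and Mmp9 made up most of that sum, and only Mmp9 rose in the order of Icam1, at 952, 2589 and 3932 CPM. S100a8, S100a9, Csf3r, Cxcr2 and Mmp8 ran the opposite way, with S100a8 at 157, 65.1 and 2.36 CPM. Of the 8 neutrophil genes the groups did not overlap for 2 that were lower and 1 that was higher. Of the 7 mast cell and basophil genes, whose sum was lower too, they did not overlap for 3 that were lower and 1 that was higher. The part of these cells in the result was not tested.

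**Figure D4:**
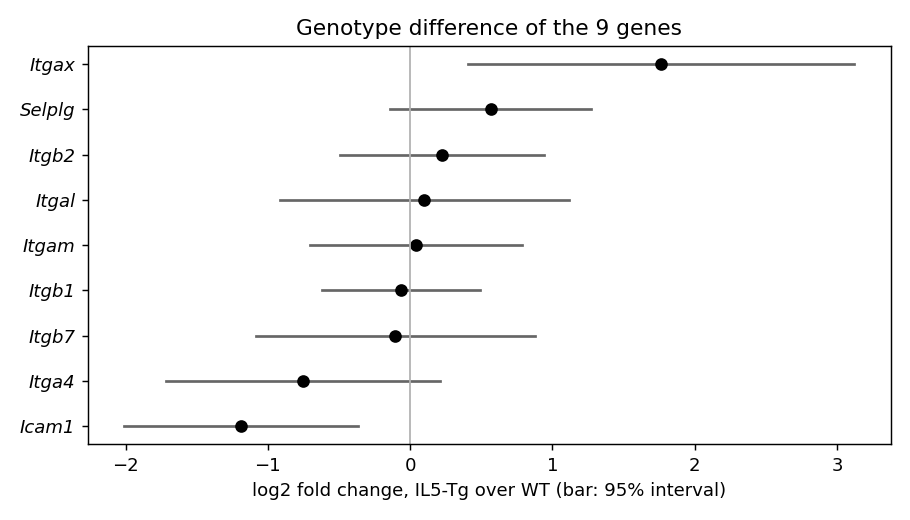
Log2 fold change of the 9 genes, IL5-Tg over WT (points), with its 95% interval from the edgeR fit (bars). The intervals of Itgax and Icam1 exclude 0, and no gene passed after adjustment over all genes.

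The 9 genes differed in which library was highest. WT replicate 3 was the highest for 5 genes (Itgam, Itga4, Itgb1, Itgb7 and Icam1) and IL5-Tg replicate 2 for the other 4. WT replicate 1 was the lowest for 6 genes, and WT replicate 3 for 0. In likeness of pattern, measured as the root mean square difference of centred log2(CPM + 1) over the 7 libraries, Itgam and Itgb2 were the closest pair of members at 0.14. Among the 7907 other genes with a mean of at least 10 CPM, the nearest to Itgb2 was Ambra1 at 0.05, to Itgb1 Khdrbs1 at 0.07, to Selplg Vps52 at 0.07 and to Itgam Hsd17b11 at 0.08. For Itga4 it was Inpp4b at 0.14, for Icam1 Gpr132 at 0.15, for Itgb7 Tap1 at 0.16 and for Itgal Uba7 at 0.18. Itgax had no gene as near: the closest was Il1rn, the gene of the IL-1 receptor antagonist, at 0.39. This measure is not scaled to a gene's own spread around its mean. That spread was 1.07 for Itgax and from 0.23 for Itgb1 to 0.75 for Icam1 among the other members. Il1rn was at 358, 215 and 386 CPM in WT and 1063, 1150, 367 and 431 CPM in IL5-Tg libraries. It was chosen for its likeness to Itgax, so its high level in the 2 libraries with titles that begin with 81 follows from that choice. Gpr132, a G protein-coupled receptor gene and the nearest to Icam1, was at 641, 608 and 1195 CPM in WT and 361, 465, 232 and 317 CPM in IL5-Tg libraries.

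The wider set of adhesion genes held 93 in 8 lists, of which 84 were tested and 0 passed by edgeR. Of these 84, 7 had an unadjusted p under 0.05, where 9.04% of all genes tested did. Limma-voom called 0 of 84, against 0.257% of all genes, and DESeq2 called 1 of the 88 to which it gave an adjusted p, Icam2, against 1.58% of all genes. The log2 fold change was positive for 55 and negative for 29, with a median of 0.22 against 0.03 over all genes tested, of which 52.1% were positive. WT replicate 3 was the lowest library for 26 of the 84 and had no reads for 13, shares that were not counted over all genes. Groups did not overlap for 3 genes that were higher and 4 that were lower in IL5-Tg, where 4.76% and 4.60% of all genes tested did so.

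Cd34, a sialomucin that selectins can bind, was at 56.3 ± 24.9 in WT and 112 ± 6.56 CPM in IL5-Tg libraries (SD, n = 3 and 4; log2 fold change 0.98, edgeR adjusted p = 0.376). In WT replicates 1, 2 and 3 it was at 73.4, 67.8 and 27.8 CPM, and without WT replicate 3 its log2 fold change was 0.68. The 8 genes tested in its list, of selectins and other selectin ligands, had a median of 0.25.

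Icam2, a further ligand of LFA-1, had the smallest p of the 84 genes tested. It was at 30.1, 23.3 and 40.1 CPM in WT and 15.4, 14.3, 9.33 and 11.9 CPM in IL5-Tg libraries. Every IL5-Tg library was below every WT library, and the log2 fold change was -1.29 ± 0.31 (SE; 95% interval -1.98 to -0.60; edgeR adjusted p = 0.165, DESeq2 adjusted p = 0.0447). F11r, the junctional molecule JAM-A, was at 0.55 on the log2 scale (edgeR adjusted p = 0.894). Of the 7 tested counter-receptors 6 had a positive log2 fold change, as did 52.1% of all genes tested.

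Other integrin subunits had the highest median of the 8 lists, 0.63, with 12 of 15 positive, where 52.1% of all genes tested were. Itga2, a collagen receptor subunit, was at 1.39, 9.40 and 12.2 CPM in WT and 17.3, 25.1, 15.7 and 31.3 CPM in IL5-Tg libraries (log2 fold change 1.55, edgeR adjusted p = 0.486). Itgae, alpha E, the partner of beta 7 that binds E-cadherin, was at 2.66, 1.90 and 0 CPM in WT and 9.09, 6.92, 4.81 and 2.75 CPM in IL5-Tg libraries (log2 fold change 1.93, edgeR adjusted p = 0.675). For neither gene did the groups overlap, though IL5-Tg replicate 4 and WT replicate 1 nearly met for Itgae. In 10 of these 15 genes WT replicate 3 was the lowest library, and 5 had no reads there. That library also had the fewest genes detected, 10877, and 6 of the 15 genes had a mean below 10 CPM. The share of all genes that were lowest there was not counted. Fibroblast markers summed to 15.3 CPM in WT replicate 3. Muscle fibre genes were also higher in IL5-Tg in their sum, at 373 to 1165 against 104 to 336 CPM, with 3 of the 6 not overlapping and 0 passing. Of all genes tested, 4.76% were higher without overlap and 0.410% passed in either direction. The part of either cell type in these values was not tested.

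Of the enzymes that make selectin ligands, C1galt1c1, a chaperone needed for core O-glycans, was at -1.16 on the log2 scale (edgeR adjusted p = 0.495) and the galactosyltransferase gene B4galt1 at -0.48 (0.685). The small GTPases that switch integrins on had log2 fold changes of -0.61 for Rap1b (edgeR adjusted p = 0.517) and -0.62 for Rap1a (0.724), while the 14 tested activators together had a median of 0.08. Of the inhibitors of integrin activation, Flna was at 0.56 and Sharpin at 0.24. Tyrobp and Fcer1g, adaptors through which beta 2 integrins signal, were at 2098 ± 193 in WT against 1314 ± 147 CPM in IL5-Tg and at 719 ± 139 against 548 ± 51.4 CPM (SD, n = 3 and 4), with log2 fold changes of -0.67 (edgeR adjusted p = 0.395) and -0.39 (0.721). Their groups did not overlap. The sheddase genes Adam8 and Adam10 were at 0.31 and 0.25.

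**Figure D5:**
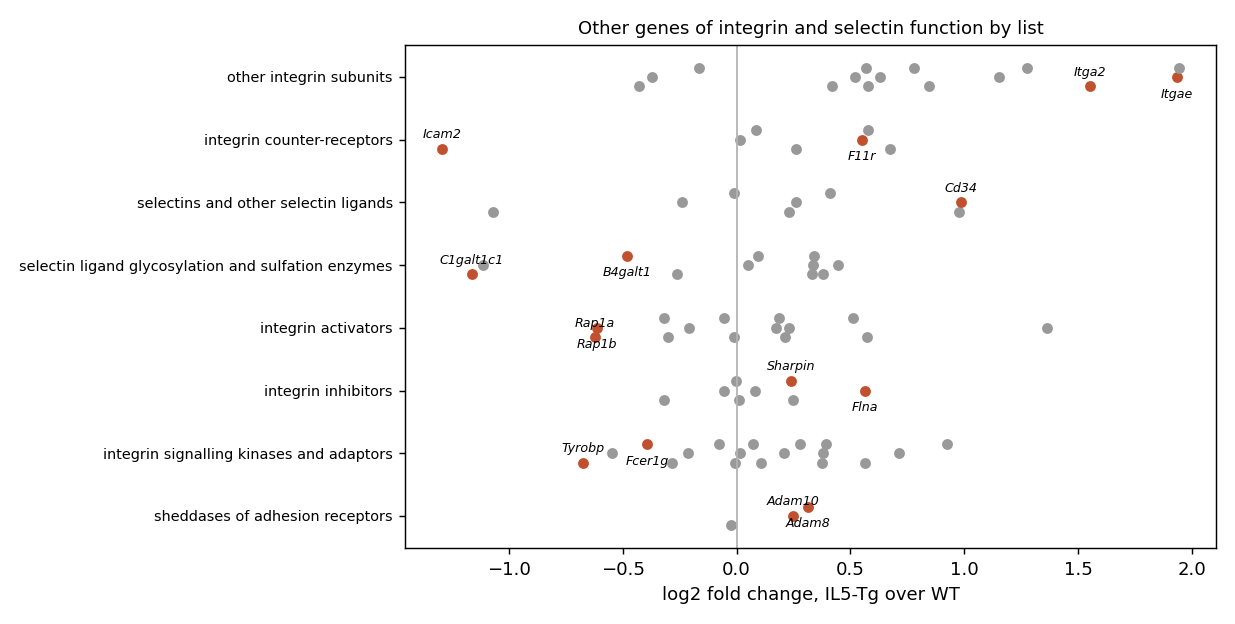
Log2 fold change, IL5-Tg over WT, of the 84 tested genes of integrin and selectin function outside the 9, by list, with 1 point per gene. Named red points are the genes given in the text, and none of the 84 passed after adjustment over all genes by edgeR.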

How the data were processed

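RNA from 7 sorted samples was sequenced as stranded mRNA libraries with short paired reads, per the labels' protocols. The authors deposited raw read counts per gene symbol, with no normalization. The submitters' processing notes name bcl2fastq 2.20, STAR, Bowtie and mm10, with no role for each; no source used here gives the counting program, annotation or strand setting. Rows for reads with no feature and ambiguous reads (0.750% to 0.943% of a library) were left out. Reads with no feature made up 15.6% to 18.2% of a library in WT and 9.15% to 13.0% in IL5-Tg. These ranges did not overlap, and their part in the genotype differences was not tested. Replicate numbers follow accession order and only name libraries. Replicate pairs differed by 106 to 149 in chi-square per gene within WT and by 26.0 to 89.6 within IL5-Tg, so none was counted as a repeat.

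The test was edgeR 4.0.16 in R 4.3.3 (quasi-likelihood, TMM, filterByExpr, robust, genotype as the only term) on the whole table, with Benjamini-Hochberg adjustment over 12428 genes. Each standard error is the absolute log2 fold change over the root of F. DESeq2 1.42.0 and limma 3.58.1 were alternatives. The procedure was tested on simulated data. The members and lists were chosen with earlier results of these data known. Text names all 9 members, called genes of each other list or its 2 with the smallest p (1 such gene is counted but not reported here), and each member's nearest gene in pattern; single marker genes named beside a result were chosen after their values were seen. Lengths and positions are from GENCODE vM21. Limits of 3 reads cover counting error only.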

Additional observations from a re-analysis of the deposited data

Results flagged for a closer look

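Among the 32 sets of 4 IL5-Tg values examined, 1 had a library far from the other 3, where chance flags about 1 in 20. The level of Itga4 over the sum of Itgb1 and Itgb7, per kilobase of exon, was 0.0419 in IL5-Tg replicate 4, against 0.0167, 0.0201 and 0.0177 in replicates 1, 2 and 3. In the WT libraries it was 0.0648, 0.0153 and 0.0414, so that this value lay within the WT range.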

How the results depend on the processing

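Over 18 planned and 2 added alternatives, the count of the 9 genes called was 0 in each. Of 498 values for 25 genes, 476 kept their direction and side of the threshold, 21 turned in direction and 1 passed, Icam2 by DESeq2. Whole-table counts moved more: DESeq2 called 145 higher and 79 lower and 1 lower pathway gene, limma-voom 24 higher, no filter 16 lower, division by the most common low count 72 higher and 28 lower, and division with thinning 16 lower. Leaving out 1 library gave 14 to 79 higher and 1 to 31 lower, and every library moved at least 1 of these counts by over 1.5 times. Without titles beginning 81, 5 were higher and 0 lower, and with titles 82 and 86 only, 17 and 1.

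Values that turned were all for genes not called. Itgam was at -0.0027 after division and thinning, and -0.24 without titles 81. Itgal was at -0.73 without titles 81 and -0.26 with 82 and 86 only. Itgb2 was at -0.12 without titles 81, Itgb1 at 0.16 and Sharpin at -0.0403 with 82 and 86 only, and Itgb7 at 0.27 by limma-voom. Leaving out 1 library gave -0.16 to 0.50 for Itgam, -0.23 to 0.58 for Itgal, -0.21 to 0.18 for Itgb1 and -0.48 to 0.32 for Itgb7. The cause was not tested.

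No pairing of replicates is given by the labels. With the shared title start as a replicate block, 46 genes were higher and 6 lower, 0 of the 9 passed, and Itgal was at -0.23, Itgb1 at 0.14, Itgb7 at 0.0298, Sharpin at -0.0702 and Itgax at 0.43. Libraries with titles that begin with 81 or 87 are of 1 genotype each. The genotype difference in this fit therefore rests on the 82 and 86 pairs, as it does with titles 82 and 86 only. Deviations from the group means correlated at 0.20 for the 82 pair and -0.11 for the 86 pair across 7916 genes. For the IL5-Tg libraries with titles 81 the value was -0.15. Deviations of libraries in the same group sum to 0, which by itself pulls their correlation below 0. This value therefore cannot be set beside those of the 82 and 86 pairs. Values for so few pairs cannot settle whether the title start marks a batch or a pairing, and it was left out of the main test.

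The difference of Itgax over Itgam was 0.166 to 0.289 without 1 library and 0.0488 without titles 81, and that of the Itgax share 8.39 to 13.4 and 3.69 percentage points. Per kilobase of coding sequence, levels were 311 for Itgam, 152 for Itgal, 795 for Itgb2, 93.9 for Itga4, 159 for Itgb1, 494 for Selplg and 122 for Icam1.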
